A study of Mus musculus with 36 samples.

Results

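The genes described here belong to the enzyme families that place or remove acetyl and methyl groups on histone lysines and arginines. They were followed in mouse fetal germ cells and gonads with or without maternal hyperglycemia. Members were chosen by gene name. They were the autosomal and X-linked genes whose symbol is Kdm, Kmt, Kat, Hdac, Prmt, Setd or Sirt with a number and at most 1 letter from a to d, plus Ep300 and Crebbp, while the Y-linked Kdm5d was left out. This gave 68 genes of the 57126 gene IDs in the tables of primordial germ cells (PGCs) and of the 56262 in the tables of gonads. The 33 writers were 10 acetyltransferases, 15 lysine methyltransferases and 8 arginine methyltransferases. The 35 erasers were 17 lysine demethylases, 11 zinc-dependent deacetylases and 7 sirtuins. Writers and erasers were assigned by name, and some of them act mainly on other proteins. The X-linked members were Hdac6, Hdac8, Kdm5c and Kdm6a.

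RNA-seq was available for 36 libraries in 12 groups of 3. Gonad libraries were made by bulk RNA-seq, and PGC libraries by Smart-seq2 from amplified cDNA. The control group and the intrauterine hyperglycemia (IUHG) group were compared in whole female gonads at E13.5 and in PGCs at E12.5, where the sexes were not separated, and in female (F) and male (M) PGCs at E13.5 and E16.5. IUHG dams received 120 mg/kg streptozotocin (STZ), which destroys pancreatic beta cells, on day 3.5 of pregnancy, and a blood glucose above 14 mM on day 6.5 was required. The labels give the genotype as WT in every group and do not say what control dams were injected with. Gonad libraries were pools of gonad pairs from ICR mice. The fathers of the PGC fetuses carried an Oct4-EGFP transgene, and cells were sorted on EGFP from pooled gonads, so a PGC library is any cell in which the Oct4 promoter fragment was active. Nothing ties a library to 1 litter, so the p-values below measure the spread between these samples.

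Histone acetylation neutralises the charge of lysine and is found at active promoters and enhancers, and deacetylases reverse it. Methylation of lysine marks active promoters on H3K4, transcribed gene bodies on H3K36 and silent chromatin on H3K9, H3K27 and H4K20. The JmjC demethylases need 2-oxoglutarate and iron, the Kdm1 demethylases need FAD, and sirtuins need NAD. In fetal PGCs the epigenome is broadly reset. Female germ cells then enter meiosis, while male germ cells become prospermatogonia in mitotic arrest.

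Depth was read from the ratio of coverage to FPKM and came to between 3.25 and 8.32 aligned gigabases in PGC libraries and between 3.89 and 4.95 in gonads. Read counts were not used here, so counting error per gene is not known. Values are TPM, a level per transcript length, so levels of different genes can be set side by side. The germ cell list (Dazl, Ddx4 and other markers) had at least 5 of 6 genes at a mean TPM of 1 or more in every group. Gonad libraries also held somatic and blood cells, with summed blood markers between 4485 and 7997 TPM. Control gonad library 1 stood apart with a summed level of 51.3 TPM of 4 Y-linked genes, which were at 0 in the other 5 gonad libraries. The IUHG library 3 of E13.5F PGCs stood apart in the levels of long transcripts, as described beside that comparison.

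In control PGCs the deacetylases Hdac2 and Hdac1 were the most abundant of the enzymes, and the levels of single enzymes spread over more than 3 orders of magnitude. Per class, the highest and the lowest mean over the 15 control PGC libraries were as follows. Among acetyltransferases, Kat7 (HBO1) had 105.6 TPM and Kat2b (PCAF) 2.36 TPM. Among lysine methyltransferases, Setd3, which methylates actin, had 100.5 TPM and Setd1b, a catalytic subunit of an H3K4 methyltransferase complex, 0.536 TPM. Among arginine methyltransferases, Prmt7 had 188.3 TPM and Prmt8, known from the brain, 0.278 TPM. The arginine methyltransferases thus had a higher median level (81.9 TPM) than the lysine methyltransferases (14.0 TPM). Among erasers, Kdm1a (LSD1, an H3K4 demethylase) had 176.7 TPM and Kdm7a 1.93 TPM, Hdac2 had 484.9 TPM and Hdac10 1.41 TPM, and Sirt7, the nucleolar sirtuin, had 79.8 TPM and Sirt5, a mitochondrial sirtuin, 11.1 TPM. A mean TPM of at least 1 was reached by between 62 and 66 members in PGC groups. Prmt8 and Setd1b were below it in all 10 PGC groups, and Prmt8 was listed at 0 in all 3 libraries of IUHG E16.5M PGCs.

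**Figure D1:**
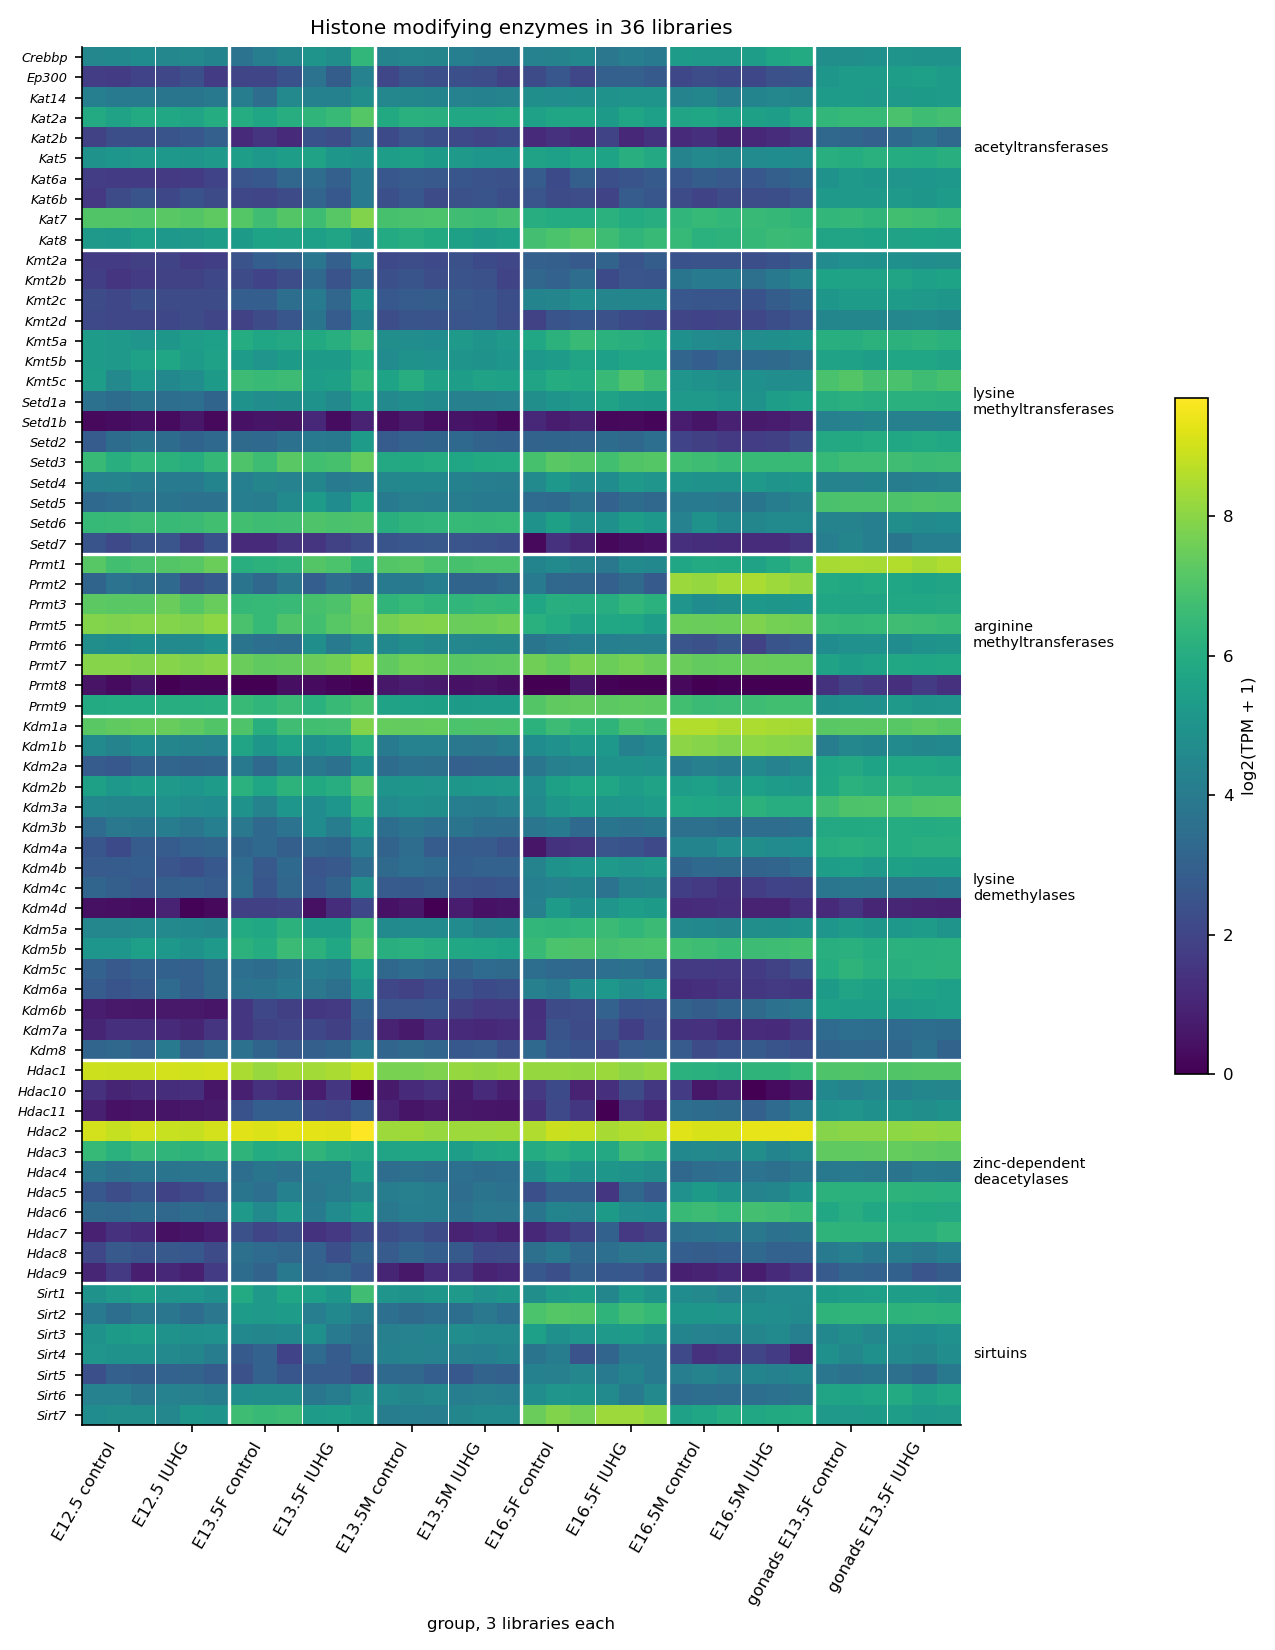
Level of each of the 68 enzymes (rows, by class) as log2(TPM + 1) in the 36 libraries (columns, 3 per group). Hdac2 is bright throughout, and Prmt2 and Kdm1b are bright in the 6 E16.5M libraries. In the gonad columns 63 enzymes are at a mean of at least 10 TPM in controls, against 37 to 47 in control PGC groups. Gonad libraries were made by another protocol and their tables were processed separately.

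For some pairs of related enzymes, picked after their values were seen, the ratio of the members differed between groups. Ep300 and Crebbp encode paired coactivators that acetylate H3K27. The ratio of Ep300 to Crebbp lay between 0.0826 and 0.267 in all control PGC libraries and at least 1.27 in control gonads. PGC and gonad libraries were made by different protocols, and their tables were aligned and assembled separately. Differences of level between them were therefore not tested. Not every pair differed in this way, as Hdac2 exceeded Hdac1 in control gonads (ratio of Hdac1 to Hdac2 0.504 to 0.533) and in the control PGCs of E13.5 and E16.5. Among the demethylases of H3K4, the ratio of Kdm5b to Kdm5c rose from between 4.61 and 6.42 in E12.5 control PGCs to between 45.6 and 51.3 at E16.5M, and was between 0.898 and 1.08 in control gonads. Kdm6b and Kdm6a remove methyl groups from H3K27. Their ratio was between 1.42 and 1.75 in E13.5M controls and between 4.13 and 5.43 in E16.5M controls, between 0.833 and 1.17 in control gonads, and at most 0.268 in every control library of E12.5, E13.5F and E16.5F PGCs. Control male PGCs thus held more Kdm6b than Kdm6a transcript, and control female PGCs the reverse.

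The control groups show how these enzymes differed between the sexes and between stages before any effect of IUHG is read. Here a difference was called at a limma adjusted p under 0.01 and more than 2-fold on log2(TPM + 1), a scale that understates differences of low genes. The study's methods name p under 0.01 and more than 2-fold for PGCs, without an adjustment, so the p limit here was stricter. Between E13.5F and E13.5M controls 66 members were tested and 15 were called, 11 higher in females (all genes, 20.4%) and 4 lower (all genes, 9.35%). The 11 were 9 erasers and only 2 writers. Their median difference was 0.14 against 0.28 for all genes tested, and with median-of-ratios scaling it was below 0 at -0.15 against -0.001, with 7 members higher and 7 lower (all genes, 2126 higher and 2204 lower in place of 3213 and 1470). With the transcript length trend removed it was -0.26, with 6 higher and 8 lower.

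Of the 7 sirtuins, 2 were called higher in E13.5F and 1 lower. Sirt7 was at 102, 94.1 and 100 TPM in E13.5F controls and at 16.1, 17.2 and 16.9 TPM in E13.5M controls, which is 5.91-fold higher in females (log2 2.49 ± 0.09 SE). Sirt2, a mostly cytoplasmic sirtuin that also deacetylates H4K16, was at 39.8, 36.9 and 39.3 TPM against 10.6, 9.17 and 10.2 TPM (log2 1.85 ± 0.11). No library of one sex reached the range of the other for either gene. The class IIa deacetylase Hdac9 was at 9.70, 7.42 and 14.2 TPM in females and at or below 1.32 TPM in males (log2 2.53 ± 0.25), and Hdac11 was at 4.42 to 6.53 TPM against 0.446 to 0.928 TPM (log2 2.03 ± 0.21). X-linked Kdm6a was at 11.8 to 15.1 TPM in females and at 2.81 to 3.51 TPM in males. In the other direction, the mitochondrial Sirt4 was at 5.66, 7.36 and 2.84 TPM in females and at 18.1, 19.4 and 18.8 TPM in males (log2 -1.73 ± 0.26). Setd7, Kat2b and Prmt6, all writers, were also lower in females, by -1.33, -1.11 and -1.04 on the log2 scale.

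At E16.5 the sexes differed more. Of 66 members, 31 were called, 21 higher in females (all genes, 22.9%) and 10 lower (all genes, 28.0%). The median member differed by 0.38 and the median gene by -0.10, and with median-of-ratios scaling by 0.12 and -0.33. The H3K9 demethylase Kdm4d was at 17.6, 39.7 and 28.4 TPM in E16.5F controls and at 1.29, 1.36 and 1.52 TPM in E16.5M controls (log2 3.56 ± 0.28), and Kdm4c, of the same family, was at 17.3 to 19.6 TPM against 1.68 to 2.52 TPM (log2 2.66 ± 0.18). Kdm4a, also of this family, ran the other way, at 0.518, 1.64 and 1.82 TPM in females and 19.8, 19.7 and 25.8 TPM in males (log2 -3.33 ± 0.28). The family was thus split by sex rather than raised or lowered as a whole. Kdm6a (log2 2.97 ± 0.23) and Kmt5b, an H4K20 methyltransferase (log2 2.29 ± 0.17), completed the 4 largest differences towards females, and Prmt2, Kdm1b and Hdac6 those towards males.

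From E13.5M to E16.5M controls 26 of 65 members were called, 12 higher at E16.5M (all genes, 38.3%) and 14 lower (all genes, 12.7%). The median member changed by -0.07 while the median gene rose by 0.61, and with median-of-ratios scaling the values were -0.42 and 0.33, with 9 members higher and 17 lower (all genes, 6411 higher and 3793 lower in place of 7832 and 2594). Prmt2, an arginine methyltransferase that acts as a nuclear receptor coactivator, went from 14.3, 14.2 and 17.1 TPM to 301, 287 and 325 TPM, which is 20.0-fold (log2 4.24 ± 0.09). Kdm1b (LSD2), the H3K4 demethylase needed for maternal imprints in growing oocytes, went from 15.4, 18.7 and 18.5 TPM to 258, 242 and 224 TPM, or 13.8-fold (log2 3.71 ± 0.09). These male increases left the 2 genes far above their levels in every female PGC library, where Prmt2 was at most 14.6 TPM and Kdm1b at most 68.7 TPM. The tubulin deacetylase Hdac6 (log2 2.52 ± 0.09) and Hdac11 (log2 2.69 ± 0.15) rose as well, and Kdm1a rose from 163 to 168 TPM up to 353 to 385 TPM. The largest falls were those of Sirt4 (log2 -2.61 ± 0.19), Prmt6, which methylates H3R2 (log2 -2.07 ± 0.12), Kmt5b (log2 -1.76 ± 0.13) and Kdm5c (log2 -1.69 ± 0.12). Hdac1 fell from 214, 214 and 224 TPM to 71.5, 69.8 and 65.7 TPM, whereas its partner Hdac2 went from 296 to 317 TPM up to 547 to 605 TPM.

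From E13.5F to E16.5F controls 15 of 66 members were called, 10 higher (all genes, 18.4%) and 5 lower (all genes, 9.78%). The median member rose by 0.14 and the median gene by 0.32, and with median-of-ratios scaling 7 members were higher, 11 were lower and the median member changed by -0.09 (all genes, 2521 higher and 2403 lower in place of 3307 and 1760). Kdm4d rose from 2.54, 2.56 and 3.01 TPM to 17.6, 39.7 and 28.4 TPM (log2 2.93 ± 0.29). Sirt2 rose to 124, 140 and 133 TPM (log2 1.75 ± 0.12) and Sirt7 to 180, 230 and 201 TPM (log2 1.03 ± 0.12). Kdm4b (log2 1.65 ± 0.26) and Sirt5 (log2 1.62 ± 0.23) completed the 4 largest rises. Prmt1, the main asymmetric arginine methyltransferase, fell from 68.3, 74.5 and 79.2 TPM to 19.6, 23.1 and 19.4 TPM (log2 -1.79 ± 0.14), and Kdm4a (log2 -1.96 ± 0.31), Setd6 (log2 -1.56 ± 0.16) and Hdac5 (log2 -1.08 ± 0.27) fell with it.

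**Figure D2:**
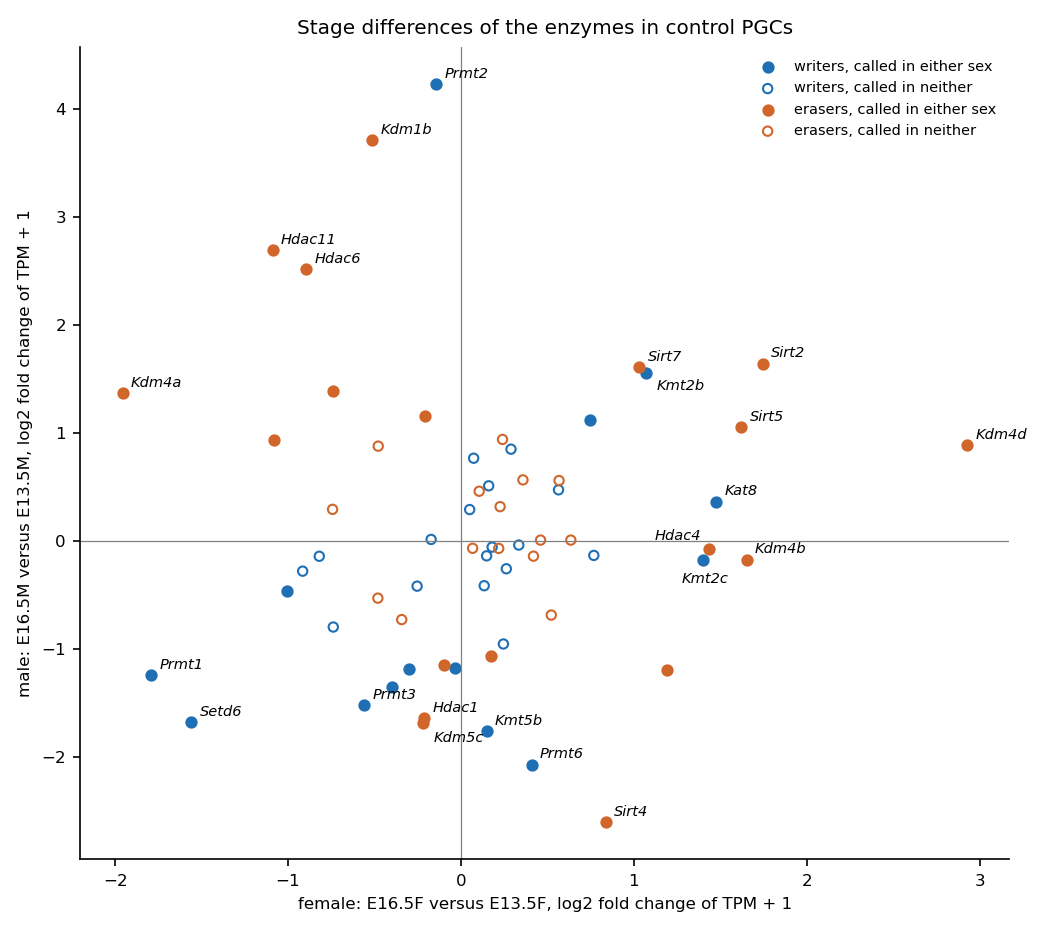
Log2 fold change of TPM + 1 from E13.5 to E16.5 in control female PGCs (horizontal axis) and control male PGCs (vertical axis), 1 point per enzyme, 3 libraries per group. Prmt2 (4.24) and Kdm1b (3.71) stand at the top, Kdm4d (2.93) stands far right, and Sirt2 and Sirt7 are positive on both axes.

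The 100 bases before the RefSeq start are shown for 4 genes so that their promoters can be compared. The genes are the sirtuins that recur below and the pair with the largest male rise. They were chosen after their values were seen. Sequences are from RefSeq on build GRCm38.p6, written 5′ to 3′ on the gene's strand, and capitals mark motif matches. Sirt7 lies on the minus strand at chr11:120625015-120625114, Sirt2 on the plus strand at chr7:28766652-28766751, Prmt2 on the minus strand at chr10:76237866-76237965 and Kdm1b on the plus strand at chr13:47043399-47043498.
Sirt7: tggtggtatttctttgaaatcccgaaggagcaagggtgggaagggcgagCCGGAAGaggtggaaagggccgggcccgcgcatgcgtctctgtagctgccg
Sirt2: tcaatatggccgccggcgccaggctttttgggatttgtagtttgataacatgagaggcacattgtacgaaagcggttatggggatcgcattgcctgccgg
Prmt2: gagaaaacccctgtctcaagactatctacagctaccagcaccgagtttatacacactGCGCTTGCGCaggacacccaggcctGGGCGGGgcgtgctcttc
Kdm1b: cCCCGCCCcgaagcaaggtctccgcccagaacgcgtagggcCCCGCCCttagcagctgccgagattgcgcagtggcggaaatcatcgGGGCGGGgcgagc

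Sirt7 held an ETS core 51 bases before the start, Prmt2 a GC box and an NRF1 palindrome 18 and 43 bases before it, Kdm1b 3 GC boxes, and Sirt2 none of the motifs searched. Motifs were searched on both strands in the same window of 27025 genes, of which 57 were members. The GC box (GGGCGGG) was found in 17.5% of all windows and 36.8% of the members, the NRF1 palindrome in 3.46% and 7.02%, the CCAAT box (CCAAT) in 19.6% and 24.6%, the ETS core (CCGGAAG) in 4.69% and 8.77%, the E-box (CACGTG) in 3.18% and 5.26%, the E2F motif (GGCGGGAA) in 0.918% and in no member, and the STRA8 word (CNCCTCAG) in 2.68% and 1.75%. The GC box and the E2F motif can overlap, and no pattern contains another. Members were also CpG-rich, with an observed to expected CpG ratio of at least 0.6 in 44 of 57 windows (77.2%) against 39.1% of all genes. These are descriptions of sequence and no binding was measured. The gene positions listed with the gonad data start Sirt7 at 120625240 and Sirt2 at 28766735. By those positions the Sirt7 window lies inside the gene and the Sirt2 window runs past its start. No reference promoter was used for Hdac1, Hdac3, Hdac10, Kat6a, Kdm2a, Kdm3b, Kdm4b, Kdm5a, Kdm6b, Kmt2b and Setd1b.

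The comparison of IUHG with control asked whether maternal hyperglycemia changed the transcripts of these enzymes at each stage and in each sex. A change was called at a limma adjusted p under 0.05 over all genes tested. Among members, 26 were called in E13.5M PGCs, 0 at E12.5, 2 at E13.5F, 4 at E16.5F, 1 at E16.5M and 2 in E13.5F gonads. The calls over all genes were 4813, 217, 505, 1058, 1241 and 449 in the same order. This order depended on the fit. With all PGC groups in 1 fit, which shares 1 spread among them, 4 members were called at E13.5M, 23 at E13.5F and 9 at E16.5F (all genes, 1263, 5350 and 4819). In libraries of pooled cells, fewer cells of a type and less RNA per cell cannot be told apart. This holds for every difference below.

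**Figure D3:**
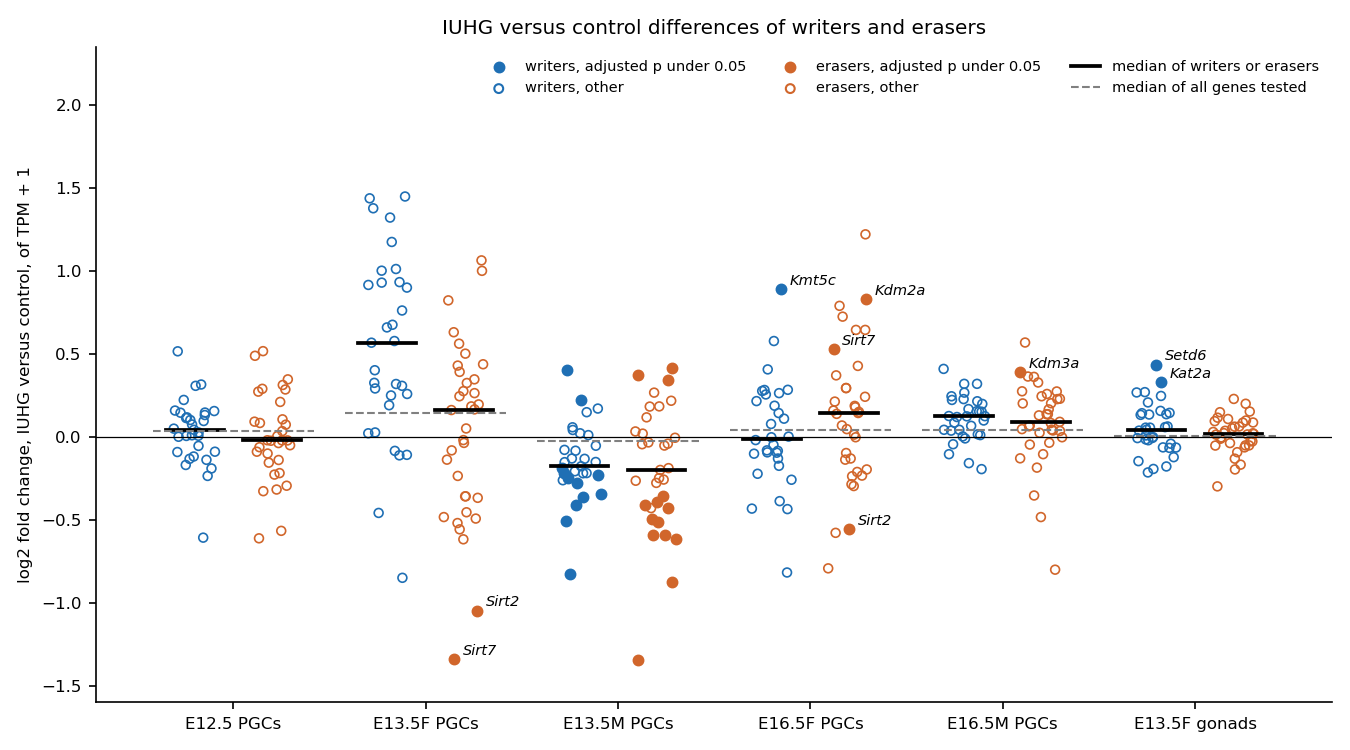
Log2 fold change of TPM + 1, IUHG versus control, for each writer (blue) and eraser (orange) in 6 comparisons, with filled points at an adjusted p under 0.05, black bars at the median of writers or erasers and a dashed line at the median of all genes tested. The writers of E13.5F PGCs sit highest, with a median of 0.57 and no filled point, and most filled points are the lowered enzymes of E13.5M PGCs.

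In E12.5 PGCs no member of the 63 tested passed in limma, neither higher (all genes, 0.879%) nor lower (all genes, 0.697%), and 8 had an unadjusted p under 0.05. The median member changed by 0.01 and the median gene by 0.04. The 2 lowest p-values belonged to Sirt4, at 31.9, 30.5 and 30.1 TPM in controls and 22.9, 21.0 and 16.2 TPM under IUHG (log2 -0.61 ± 0.14, adjusted p = 0.072), and to Kdm6a, at 5.98, 4.80 and 5.76 TPM and 9.44, 6.58 and 9.15 TPM (log2 0.52 ± 0.19, adjusted p = 0.23). Both groups were separated in these libraries, but not by enough to pass over all genes. The sexes were pooled at this stage. The sum of 4 Y-linked genes was between 194 and 212 TPM in controls and between 130 and 154 TPM under IUHG. In control PGCs at E13.5, X-linked Kdm6a was higher and Sirt4 lower in females (log2 1.76 and -1.73). The part of the mix of sexes in the E12.5 values of either gene was not tested. Summed pregranulosa markers were at 5.95 to 7.49 TPM in controls (3 of 5 at a mean of 1 or more) and 1.27 to 2.94 TPM under IUHG (0 of 5).

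In E13.5F PGCs 2 of 66 members were called, both sirtuins and both lower under IUHG (all genes, 1.99%), and no member was called higher (all genes, 1.06%). Sirt7 went from 102, 94.1 and 100 TPM in controls to 40.6, 41.1 and 34.0 TPM under IUHG, a 2.56-fold lower mean (log2 -1.34 ± 0.18, limma adjusted p = 0.0081). Sirt2 went from 39.8, 36.9 and 39.3 TPM to 16.8, 21.9 and 16.3 TPM (log2 -1.05 ± 0.22, limma adjusted p = 0.035). All 3 IUHG libraries were below all 3 controls for both genes. The other 5 sirtuins were not called, and Sirt1, a nuclear sirtuin, was at 36.0 to 59.7 TPM in controls and 34.0 to 106 TPM under IUHG. Leaving out any 1 control library ended both calls, and calls over all genes fell from 505 to between 42 and 51. Without IUHG library 1 or 2 Sirt7 remained and Sirt2 did not (all genes, 210 and 340). Without IUHG library 3, the one that stood apart, 8 members were called, Sirt7, Sirt2, Sirt6 and Kmt5c lower and Ep300, Kat2b, Prmt1 and Prmt3 higher, which is 12.1% of members against 11.6% of all genes.

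**Figure D4:**
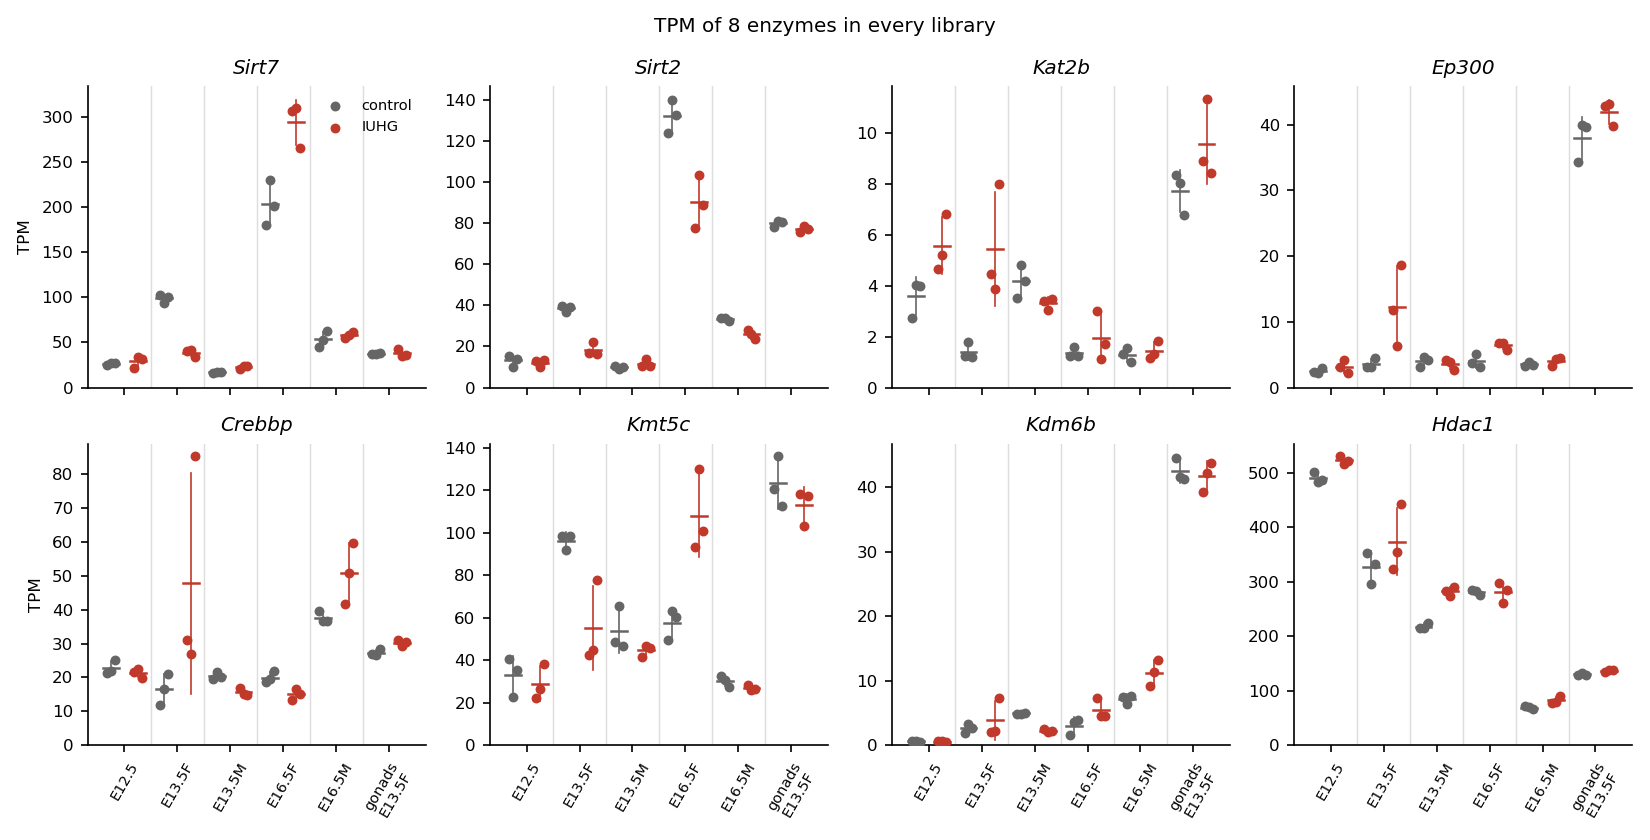
TPM of 8 enzymes in every library, control in grey and IUHG in red, with the mean as a bar and the SD as a line (n = 3). Sirt7 and Sirt2 are lower under IUHG at E13.5F, Sirt7 is higher and Sirt2 lower at E16.5F, and the IUHG points of Crebbp and Ep300 at E13.5F lie above the controls with 1 library far above the rest.

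Several writers of E13.5F PGCs had positive values that did not pass the test. The acetyltransferase Kat2b was at 1.23, 1.78 and 1.21 TPM in controls and 4.47, 3.87 and 8.00 TPM under IUHG (log2 1.38 ± 0.35, limma adjusted p = 0.068). Ep300 was at 3.06, 3.08 and 4.50 TPM and 11.8, 6.35 and 18.7 TPM (log2 1.45 ± 0.38, adjusted p = 0.077), and Crebbp at 11.8, 16.6 and 21.0 TPM and 31.1, 27.0 and 85.4 TPM (log2 1.32 ± 0.41, adjusted p = 0.11). The IUHG libraries of all 3 genes lay above every control, and they varied more among themselves than the controls did. The H3K4 methyltransferase Kmt2d (log2 1.44 ± 0.41, adjusted p = 0.091) and the H4K20 methyltransferase Kmt5c (98.3, 91.8 and 98.6 TPM against 42.4, 44.9 and 77.8 TPM, log2 -0.85 ± 0.25, adjusted p = 0.094) were also not called. Of 66 members, 16 had all IUHG libraries above all controls (all genes, 19.8%) and 4 had them all below (all genes, 13.2%).

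Writers and erasers of E13.5F PGCs had different medians. The median of the 31 writers tested was 0.57, with 26 above 0, and that of the 35 erasers was 0.16, with 19 above 0, while the median of all genes was 0.14. With median-of-ratios scaling the median gene was at 0.005, the writers were at 0.41 and the erasers at -0.001. The erasers were also below 0 at -0.09 with the length trend removed and at -0.10 without IUHG library 3, while the writers were at 0.28 and 0.37 there. The summed TPM of writers over that of erasers was 0.773 ± 0.021 (SD, n = 3) in controls and 0.904 ± 0.048 under IUHG.

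Transcript length went with these values. The longest annotated transcript of a tested member had a median of 4066.5 bases against 2704 for all genes tested, and the median gene spans were 40526 and 14456 bases. Across all genes tested in E13.5F PGCs, Spearman's rho of the log2 fold change with transcript length was 0.27, and across members 0.55, and genes are not independent replicates. In 5 bins of equal gene number, from the shortest to the longest transcripts, the median of all genes went from -0.12 through -0.04, 0.08 and 0.20 to 0.42. No member was in the shortest bin and 29 were in the longest, where their median was 0.56. In the bins between, with 10, 14 and 13 members, the members' medians were -0.065, -0.03 and 0.17, all below those of all genes. Of the 6 libraries 1 stood out in this trend. In IUHG library 3 the longest bin deviated from the mean of the 6 libraries by 0.80 and the shortest by -0.40, while in the other 5 the longest minus the shortest was between -0.52 and -0.12. The median member deviated by 0.62 in library 3. Without that library the median was 0.06 for members and 0.02 for all genes.

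With a trend of transcript length removed from each library, 9 members were called in E13.5F PGCs (13.6% of members and 12.4% of all genes), and Sirt7 (log2 -1.44) and Sirt2 (log2 -1.03) stayed lower. Kmt5c (log2 -0.90) and the H3K4 demethylase Kdm5a (log2 -0.69) were lower as well, and Kat2b (log2 1.11), Ep300 (log2 0.96), Crebbp (log2 0.88), Kat2a (log2 0.66) and Prmt3 (log2 0.63) were higher. Removing a trend of gene span instead gave 6 calls (9.09% of members and 7.16% of all genes), with Ep300, Kat2b and Kmt2d higher and Sirt7, Sirt2 and Kmt5c lower. Ep300 and Kat2b were also called higher with median-of-ratios scaling, and Ep300 and Kmt2d without IUHG library 2. Summed germ cell markers were at 4686 to 4980 TPM in controls and 5676 to 6427 TPM under IUHG, and pregranulosa markers at 11.1 to 17.3 TPM (4 of 5 at a mean of 1 or more) and 8.30 to 12.54 TPM (3 of 5), whose part in the values was not tested. In the other 4 PGC comparisons and in gonads, rho of length and fold change across all genes was between -0.06 and 0.12.

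**Figure D5:**
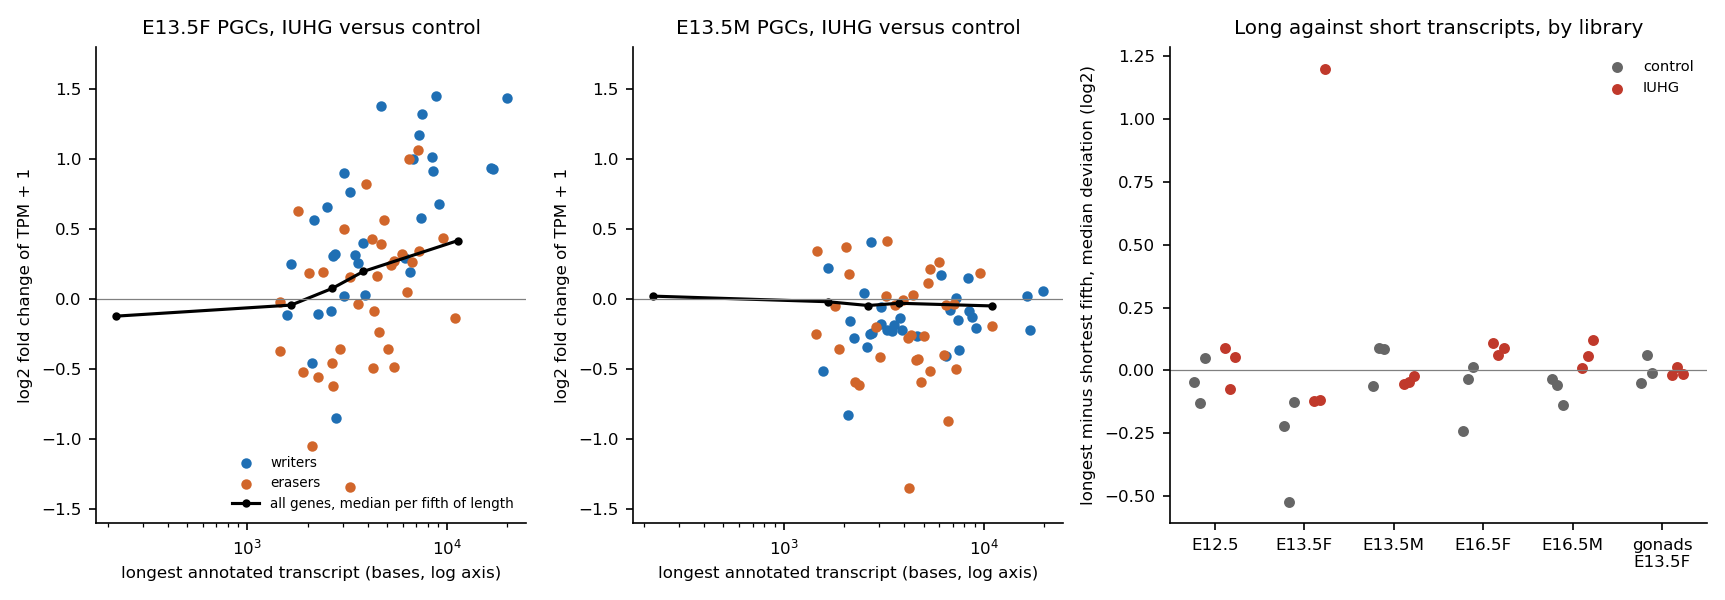
Left and centre, log2 fold change of TPM + 1 (IUHG versus control) against the longest annotated transcript (bases, log axis) for writers and erasers in E13.5F and E13.5M PGCs, with the median of all genes in each of 5 length bins in black. Right, the median deviation of the longest minus the shortest bin in each library, where IUHG library 3 of E13.5F PGCs stands above all others, which are between -0.52 and 0.12.

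In E13.5M PGCs 26 of 64 members were called, 21 lower (all genes, 18.0%) and 5 higher (all genes, 15.2%). The changes were small. On the log2(TPM + 1) scale Hdac7 was the only member past 1, with Kdm6b 2.19-fold lower by mean TPM, and the median member was at -0.19 and the median gene at -0.02. Writers (10 lower, 2 higher) and erasers (11 lower, 3 higher) shared the direction, with medians of -0.18 and -0.20. The summed TPM of writers over that of erasers was 1.19 ± 0.045 (SD, n = 3) in controls and 1.08 ± 0.012 under IUHG. The groups did not overlap, and the ratio fell where that of E13.5F PGCs was higher under IUHG. Abundant genes weigh most in these sums. The mean sum of writers fell from 1381 to 1234 TPM, and that of erasers went from 1166 to 1141 TPM. Among writers, arginine methyltransferases fell from 699.3 to 610.0 TPM and acetyltransferases from 346.4 to 287.6 TPM. Lysine methyltransferases were at 335.4 and 336.7 TPM. Among erasers, the zinc-dependent deacetylases, with Hdac1 among them, rose from 631.7 to 685.5 TPM. The lysine demethylases fell from 407.5 to 322.1 TPM. The medians of writers (-0.18) and erasers (-0.20) were close to each other. Replicates were tight here, and leaving out 1 library at a time gave between 21 and 28 calls. These were 32.8% to 43.8% of members, against 25.4% to 31.0% of all genes. With all PGC groups in 1 fit the count was 4.

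Among the erasers of E13.5M PGCs, the class IIa deacetylase Hdac7 went from 3.85, 4.59 and 3.60 TPM to 0.963, 1.09 and 0.858 TPM, 4.13-fold lower (log2 -1.34 ± 0.15, limma adjusted p = 0.00015). Kdm6b, the H3K27 demethylase, went from 4.87, 4.91 and 4.99 TPM to 2.57, 2.03 and 2.12 TPM (log2 -0.87 ± 0.13, adjusted p = 0.00084), so that its ratio to Kdm6a fell from at least 1.42 to at most 0.586. Kdm1a went from 167, 163 and 168 TPM to 124, 125 and 124 TPM (log2 -0.41 ± 0.04, adjusted p = 0.00014). For all 3 genes the groups were far apart relative to the spread within them. The H3K9 demethylase Kdm3a went from 24.5, 27.9 and 27.3 TPM to 16.9, 16.4 and 18.5 TPM (log2 -0.59 ± 0.08). Of the 14 tested demethylases that need 2-oxoglutarate, 6 were lower (all genes, 18.0%) and none higher (all genes, 15.2%), namely Kdm2a, Kdm3a, Kdm4b, Kdm5b, Kdm6b and Kdm8.

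The deacetylase Hdac1 rose in E13.5M PGCs, from 214, 214 and 224 TPM to 282, 274 and 290 TPM (log2 0.37 ± 0.04, limma adjusted p = 0.00025), while Hdac2 was at 296 to 317 TPM in controls and 307 to 320 TPM under IUHG. Sirt7 rose from 16.1, 17.2 and 16.9 TPM to 20.9, 23.6 and 23.6 TPM (log2 0.42 ± 0.08), opposite in sign to E13.5F. Sirt3, the mitochondrial deacetylase, rose by 0.34, and Sirt6, which acts on H3K9 acetylation, fell by 0.35 on the log2 scale. Among writers, Kmt5a, which monomethylates H4K20, rose from 26.6, 26.0 and 25.0 TPM to 35.7, 31.2 and 37.0 TPM (log2 0.41 ± 0.08), and Setd6 rose by 0.22. Prmt2 fell from 14.3, 14.2 and 17.1 TPM to 7.73, 7.62 and 9.11 TPM (log2 -0.82 ± 0.11), and Kat8, the H4K16 acetyltransferase, fell from 59.3, 64.2 and 58.9 TPM to 44.9, 39.4 and 43.1 TPM (log2 -0.51 ± 0.07). Setd1a (log2 -0.41), Crebbp (log2 -0.36) and Prmt5, the symmetric arginine methyltransferase needed by PGCs (log2 -0.25), fell as well. Kmt2a, Kmt2b, Kmt2c and Kmt2d were not called.

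Markers of other cells moved with IUHG in the E13.5M libraries. The summed interstitial and steroidogenic list was at 15.5 to 21.0 TPM in controls, with 3 of 5 markers at a mean of 1 or more, and at 1.31 to 2.66 TPM under IUHG, with 0 of 5. The pregranulosa list, shared with other supporting cells, was at 19.0 to 25.8 TPM and 12.8 to 15.1 TPM, and the Sertoli list at 35.3 to 41.97 TPM and 28.0 to 35.7 TPM. Summed germ cell markers were at 8790 to 9457 TPM and 7782 to 8078 TPM. No marker of these lists was at 0 in all libraries of either group. The part of these cells in the enzyme values was not tested.

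The difference between the sexes in the effect of IUHG at E13.5 was tested as the female effect minus the male effect. Of 66 members, 5 had a higher value (all genes, 5.04%) and 2 a lower value (all genes, 4.84%). The lower pair was Sirt7 (-1.75 ± 0.17, limma adjusted p = 7.29e-05), which fell in females and rose in males, and Sirt2 (-1.23 ± 0.23, adjusted p = 0.0055). The higher 5 were all writers, with 4 acetyltransferases. They were Kat2b (1.64 ± 0.35, adjusted p = 0.012), Prmt6 (1.08 ± 0.27, adjusted p = 0.025), Kat2a (0.98 ± 0.26, adjusted p = 0.034), Ep300 (1.58 ± 0.44, adjusted p = 0.040) and Crebbp (1.69 ± 0.48, adjusted p = 0.042). The median gene had a difference of 0.16 and the median member one of 0.49, against -0.015 and 0.28 with median-of-ratios scaling (all genes, 871 higher and 1277 lower in place of 877 and 841). Sirt7, Sirt2 and Kat2b passed whichever of the 12 libraries was left out, while leaving out 1 library gave between 3 and 17 calls. The count was 3 (4.55% of members, 5.08% to 6.59% of all genes) without control F library 2, control M library 2 or 3, or any IUHG M library. It was 4 (6.06% of members) without control F or M library 1 (6.85% and 5.56% of all genes). Without IUHG F library 1 it was 11 (16.7% of members, 13.1% of all genes). It was 17 without IUHG F library 2 (25.4% and 18.0%) and 16 without IUHG F library 3 (24.2% and 20.9%).

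In E16.5F PGCs 4 of 65 members were called, 3 higher (all genes, 2.56%) and 1 lower (all genes, 3.08%). The median member was at 0.07 and the median gene at 0.04. Kmt5c, which trimethylates H4K20, went from 49.5, 63.1 and 60.1 TPM to 93.2, 130 and 101 TPM (log2 0.89 ± 0.16, limma adjusted p = 0.017). Sirt7 went from 180, 230 and 201 TPM to 307, 310 and 265 TPM (log2 0.53 ± 0.11, adjusted p = 0.031), and the H3K36 demethylase Kdm2a from 13.0, 17.5 and 18.9 TPM to 30.8, 29.5 and 29.1 TPM (log2 0.83 ± 0.19, adjusted p = 0.039). Sirt2 went from 124, 140 and 133 TPM to 77.9, 104 and 89.0 TPM (log2 -0.56 ± 0.13, adjusted p = 0.040). Sirt2 was thus below its controls in female PGCs at both E13.5 and E16.5, whereas Sirt7 was below them at E13.5 and above them at E16.5. The 4 calls rested on all 6 libraries. None passed when any 1 control library or IUHG library 3 was left out (all genes, 170 to 350 in place of 1058). Kmt5c alone passed without IUHG library 1 (all genes, 749), and Kmt5c and Sirt2 passed without IUHG library 2 (all genes, 1241). Summed blood markers were at 2.94 to 17.1 TPM in controls and 1.61 to 164 TPM under IUHG, with 2 of 4 at a mean of 1 or more in both, and their part was not tested.

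In E16.5M PGCs 1 of 66 members was called higher (all genes, 3.38%) and none lower (all genes, 2.54%), with 14 members at an unadjusted p under 0.05 in limma. Kdm3a went from 55.2, 51.3 and 49.4 TPM to 73.7, 65.6 and 65.7 TPM (log2 0.39 ± 0.08, adjusted p = 0.031). It passed without control library 1 (all genes, 866). It missed without any other library (all genes, 151 to 759), with adjusted p between 0.058 and 0.10. With all libraries it also missed under median-of-ratios scaling (adjusted p = 0.052), where all genes split into 476 higher and 681 lower in place of 708 and 533. The only member called then was Sirt2, and it was lower (log2 -0.40, adjusted p = 0.045), as it also was with the transcript length trend (adjusted p = 0.040) or the gene span trend (adjusted p = 0.044) removed. FPKM likewise gave 1 lower call and none higher. Among the fits that left out 1 library, Hdac2 was called higher beside Kdm3a without control library 1, Crebbp and Kdm6b were called higher without IUHG library 1, Hdac5 was called lower without IUHG library 3, and no member was called otherwise. With all libraries and TPM scaling, Sirt2, with the next lowest p, was at 33.7, 33.9 and 32.4 TPM and 27.8, 26.2 and 23.8 TPM (log2 -0.35 ± 0.09, adjusted p = 0.056). Most members, 52 of 66, had a positive value, and the median was 0.12 for members and 0.04 for all genes, or 0.075 and 0.001 with median-of-ratios scaling. The high levels of Prmt2 and Kdm1b in these cells were 278 to 353 TPM and 244 to 261 TPM under IUHG, and neither was called. Summed interstitial markers were at 24.4 to 88.2 TPM in controls and 15.9 to 24.5 TPM under IUHG (4 of 5 markers at a mean of 1 or more in both), and Sertoli markers at 97.4 to 103 TPM and 72.8 to 76.2 TPM (5 and 4 of 5), and blood markers at 162 to 344 TPM and 49.5 to 181 TPM (3 of 4 in both). The part of these cells in the values was not tested.

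At E16.5 the female effect minus the male effect was higher for 1 of 66 members (all genes, 1.51%) and lower for 1 (all genes, 2.91%). These were Kmt5c (1.05 ± 0.19, limma adjusted p = 0.012), at 32.3, 30.5 and 27.4 TPM in E16.5M controls and 28.1, 26.1 and 26.3 TPM under IUHG, and Crebbp (-0.80 ± 0.20, adjusted p = 0.045). Crebbp was at 18.5, 19.4 and 21.8 TPM in E16.5F controls and 13.2, 16.6 and 15.2 TPM under IUHG, and at 39.6, 36.5 and 36.6 TPM and 41.8, 50.8 and 59.8 TPM in E16.5M PGCs. In neither sex alone was Crebbp called. Kmt5c passed whichever of the 12 libraries was left out, and Crebbp passed only without control F library 1, IUHG F library 2 or IUHG M library 1. The count was 4 without control F library 1 and 1 without control F library 2, IUHG F library 3, control M library 2 or 3, or IUHG M library 2 or 3.

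In E13.5F gonads, which hold somatic and blood cells beside germ cells, 2 of 68 members were called, both higher (all genes, 1.43%), and none lower (all genes, 1.05%), with 8 at an unadjusted p under 0.05 in limma. Setd6 went from 19.2, 19.1 and 17.1 TPM to 26.5, 23.9 and 25.5 TPM (log2 0.44 ± 0.08, adjusted p = 0.036), and Kat2a (GCN5, the acetyltransferase of the SAGA complex) from 84.7, 88.4 and 90.0 TPM to 121, 102 and 110 TPM (log2 0.33 ± 0.07, adjusted p = 0.045). Neither passed when any 1 of the 6 libraries was left out (all genes, 63 to 332 in place of 449), with adjusted p between 0.052 and 0.12. Without control library 1, which held the Y-linked transcripts and 289.2 TPM of summed Sertoli markers, the values were 0.465 and 0.31. Sirt7 was at 36.7, 36.9 and 37.9 TPM in control gonads and 42.8, 35.0 and 35.6 TPM under IUHG, and Sirt2 at 78.2 to 80.9 TPM and 75.7 to 78.6 TPM. Summed germ cell markers were at 427 to 528 TPM in controls and 620 to 728 TPM under IUHG, and blood markers at 6284 to 7997 TPM and 4485 to 5292 TPM, and the part of these cells in the values was not tested.

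The enzymes of H3K4 methylation (Kmt2a to Kmt2d, Setd1a, Setd1b, Kdm1a, Kdm1b, Kdm2b, Kdm5a to Kdm5c) had 3 of 11 tested called lower at E13.5M (Kdm1a, Kdm5b and Setd1a), where 18.0% of all genes were, and 0 called in the other 5 comparisons of IUHG with control. At E13.5F 9 of 11 had positive values with a median of 0.50, where the median of all genes was 0.145. Kmt2a to Kmt2d, Setd1a, Kdm2b and Kdm5a to Kdm5c were in the bin of longest transcripts, whose median over all genes was 0.42. With other settings there, Kdm5a was called lower (length trend removed) and Kmt2d higher (gene span trend removed, or without IUHG library 2). Kdm5c, the X-linked H3K4 demethylase, was at 10.5, 9.68 and 12.1 TPM in E13.5F controls and 16.7, 15.4 and 43.6 TPM under IUHG (log2 1.00 ± 0.38, limma adjusted p = 0.16), and Kmt2a at 4.61, 6.53 and 7.56 TPM and 12.9, 6.87 and 22.0 TPM (log2 0.93 ± 0.40, adjusted p = 0.20). In both genes the third IUHG library gave the highest value.

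Of 31 further histone writers and erasers with other names, Prdm9 was the only one of 28 called at E13.5F, lower (all genes, 1.99%). Prdm9 is the meiotic H3K4 methyltransferase that places recombination sites. It was named after its values were seen. Prdm9 went from 29.7, 27.3 and 30.1 TPM to 7.05, 5.09 and 4.00 TPM in E13.5F PGCs (log2 -2.26 ± 0.26, limma adjusted p = 0.0037) and from 67.5, 75.1 and 80.5 TPM to 122, 148 and 146 TPM in E16.5F PGCs (log2 0.89 ± 0.13, adjusted p = 0.0058). Like Sirt7, it was below the controls at E13.5F and above them at E16.5F. At E13.5M 3 of 28 were higher and 7 lower (all genes, 15.2% and 18.0%). At E16.5F Prdm9 was higher and Prdm16 lower (all genes, 2.56% and 3.08%). At E16.5M Prdm16 and Smyd3 were higher (all genes, 3.38%), and in gonads none of 31 was called. Of 47 listed subunits that share complexes with the members, 1 was higher at E13.5F (Mta1, all genes 1.06%). At E13.5M 5 were higher and 15 lower (all genes, 15.2% and 18.0%), and at E16.5F 1 was lower (Dpy30, all genes 3.08%). At E16.5M 3 were higher (Wdr77, Riok1 and Rbbp7, all genes 3.38%). In gonads 5 were higher (Wdr77, Ash2l, Gatad2a, Sin3a and Mta3, all genes 1.43%). Wdr77 and Riok1 bind Prmt5.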

How the data were processed

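RNA-seq gene tables of 36 libraries were analysed. Per the labels and the study's methods, reads were trimmed with Trim Galore and aligned by the authors with HISAT2 (gonads) or STAR to mm39 (PGCs), and StringTie gave the gene tables. The methods name mm9 for gonads, but gene positions in those files matched GRCm38. The deposited TPM values are relative levels per length that the authors brought to a common sum. The deposited FPKM values were scaled for length and mapped fragments, and the deposited coverage signal was left unscaled. The authors used DESeq2 on counts, which were not used here. Whether strand was used is not given in the sources used here, so reads of overlapping genes on opposite strands may be mixed.

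Values of a gene ID were summed and log2(TPM + 1) was modelled in R 4.3.3 by limma 3.58.1 (two-sided, trended eBayes, Benjamini-Hochberg over all genes tested). A gene entered a comparison when its mean reached 1 TPM in any group compared. Each comparison was fitted on its own libraries, and the interaction on 4 groups. Fold changes of means are on the TPM scale. Other settings were median-of-ratios scaling, FPKM in place of TPM, an unfiltered table, 0.1 as pseudocount, a replicate block and all PGC groups in 1 fit. Trends of transcript length or gene span were also removed per library with a spline, and each library was left out. The study's thresholds were applied too, with adjusted p also for PGCs, where the study names p without an adjustment. The script was tested on simulated data. Sequence windows were read from RefSeq (GRCm38.p6) for the 57 members matched by symbol, and transcript lengths from an annotation of mm9 by gene ID. Figures were drawn with matplotlib 3.10.9.

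Named in the text were called members of each IUHG comparison (up to 5 per direction by lowest p, and with fewer than 2 called, the 2 lowest p), a set of H3K4, H3K27 and acetylation enzymes, the 4 largest control differences per direction, the highest and lowest member per class and members at 0. Genes named outside these rules were chosen after their values were seen, among them the near-copy pairs, Hdac9 and Kdm6a at E13.5, Prdm9 and the subunits. Members and lists were chosen with earlier results of these data known.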

Additional observations from a re-analysis of the deposited data

Results flagged for a closer look

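The effect of IUHG differed between female and male PGCs for 8 enzymes by a test of the interaction itself (female effect minus male effect, limma, log2 scale). At E13.5 the values were -1.75 for Sirt7, -1.23 for Sirt2, 1.64 for Kat2b, 1.08 for Prmt6, 0.98 for Kat2a, 1.58 for Ep300 and 1.69 for Crebbp. At E16.5 they were 1.05 for Kmt5c and -0.80 for Crebbp, so the sign for Crebbp differed between the stages, a change that was not tested. IUHG library 3 of E13.5F PGCs, whose long transcripts were high, enters the values at E13.5. Without it, 16 members passed at E13.5, these 7 among them (24.2% of members and 20.9% of all genes, against 10.6% and 9.88% with all libraries). Leaving out 1 of the other libraries gave as few as 3, namely Sirt7, Sirt2 and Kat2b. That was 4.55% of members against 5.08% to 6.59% of all genes.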

How the results depend on the processing

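A check of 60 results of named genes found no reversed direction. Of 331 values under settings that kept all libraries, 285 kept their side of the threshold and 46 fell short of it. Of 414 with a library left out, 315 did and 99 fell short. Other named genes were not part of this check, and values that were not called could change sign. At E13.5F 19 of 35 erasers were above 0, and 12 with the transcript length trend removed. The replicate numbers did not pair the samples, with correlations of same-numbered libraries between -0.085 and 0.126 and never over 0.1 for all 3 pairs. With the replicate block, 9 members were called at E13.5F, 0 at E16.5M, 0 in gonads and 1 in the E16.5 interaction, and no other count moved by over 1.5 times. At E13.5F the count was 4 with FPKM (all genes, 778), 5 with median-of-ratios scaling (2 higher, 3 lower, all genes 893) and 9 with the length trend removed (1762). It was 6 with the gene span trend removed (1184), 1 without a filter (65) and 1 at the study's thresholds with adjusted p (85). All PGC groups in 1 fit gave 23 (19 higher, 4 lower, all genes 5350). With all PGC groups in 1 fit the counts were 4 at E13.5M, 9 at E16.5F, 0 at E16.5M and 19 in the E13.5 interaction, which had 16 with the length trend removed. At the study's thresholds, with adjusted p throughout, they were 1 at E13.5M and 0 at E16.5F, E16.5M and in gonads. Without a filter they were 0 at E16.5F, E16.5M and in gonads, and in gonads FPKM and median-of-ratios scaling gave 1 each. Leaving out 1 library gave 0 to 8 calls at E13.5F (all genes, 42 to 1846) and 0 to 2 at E16.5F (all genes, 170 to 1241). It gave 0 to 2 at E16.5M (all genes, 151 to 866) and 0 in gonads (all genes, 63 to 332). The range was 3 to 17 in the E13.5 interaction (all genes, 884 to 3508) and 1 to 4 in the E16.5 interaction (all genes, 425 to 1732). The members' median at E13.5M was -0.151 with FPKM, -0.168 with median-of-ratios scaling, -0.141 with the length trend and -0.163 with the gene span trend removed, and -0.214 to -0.141 with a library left out. It was 0.015 with FPKM and 0.006 to 0.093 with a library left out at E16.5F, and in gonads 0.009 with median-of-ratios scaling, 0.031 with the length trend removed and -0.001 to 0.054 with a library left out. The cause of these shifts was not tested. The 4 control comparisons kept their total counts within 1.5 times under every setting run, but not the counts per direction. With the length trend removed these were 6 higher and 8 lower for E13.5F versus E13.5M (11 and 4 otherwise), 7 and 10 for E16.5F versus E13.5F (10 and 5) and 7 and 19 for E16.5M versus E13.5M (12 and 14), and median-of-ratios scaling gave 7 and 11 for E16.5F versus E13.5F. The length check of the E16.5 interaction was void, as 79.29% of genes had a length. With 3 libraries a group and no counts, differences of low genes such as Prmt8, Setd1b and Hdac10 could not be resolved.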
